A study of Mus musculus with 11 samples.

Results

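Acetylation of histone H3 at lysine 27 (H3K27ac), a mark of active promoters and enhancers, was examined at 6 genes that encode cardiac transcription factors or their partners: *Hopx*, *Hand2*, *Myocd*, *Gata6*, *Nr2f1* and *Mef2a*. The mark had been profiled by CUT&RUN, in which an antibody guides a nuclease that cuts out and releases the marked chromatin. The nuclei came from pooled left and right atria of mice aged 8 to 12 weeks and had been sorted by FACS for PCM1, which marks cardiomyocyte nuclei. There were 5 control libraries and 6 libraries of *Tbx5*G125R/+ mice, in which CRISPR-Cas9 had placed a glycine-to-arginine change in the T-box of 1 *Tbx5* allele, while the other allele was left as it was. The labels call the other genotype only "Control".

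The regions were selected on a measured value: the deposited table lists the 1652 regions whose acetylation the authors called different between these same libraries, and each region was given to the nearest protein-coding gene within 100 kb of its most significant 500 bp bin, the top bin. By this rule 9 of the 1652 regions belonged to the 6 genes, at least 1 at each. In the top bin, 8 of them were lower and 1 was higher in *Tbx5*G125R/+. The 6 genes had themselves been chosen as cardiac factors with lost acetylation, so that this split was largely fixed and is no result. Since the same libraries chose the regions, the genotype difference is given as a description, and no test of it is read as support for any region. Levels are given as normalised reads of the top bin (the read count over the library's size factor), and all top bins have the same length. The libraries count as replicates by their labels, so that spreads and p-values measure only the variation between these samples. The libraries were whole preparations of sorted nuclei, so that fewer nuclei of a kind and less acetylation per nucleus cannot be told apart. Called regions at cardiomyocyte markers were lower and those at fibroblast markers higher in every *Tbx5*G125R/+ library, as summed levels, than in every control (values at the end). These regions had been called in that direction on the same libraries, so that the separation of the sums was largely fixed. Only 3 of 12 cardiomyocyte markers had a called region, and 1339 of all 1652 regions were higher. The part of these marker differences in the results was not tested.

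These factors act together in the heart. Tbx5, Gata6, Hand2 and the MADS-box protein Mef2a bind regulatory DNA of cardiac genes, often at shared enhancers. Myocardin (Myocd) does not bind DNA by itself and acts as a coactivator of serum response factor (SRF), which recognises the CArG box of muscle genes. Hopx is an atypical homeodomain protein that lacks DNA binding, associates with SRF and recruits histone deacetylases. Nr2f1 is an orphan nuclear receptor that belongs to the programme of atrial identity in human stem cell-derived cardiomyocytes.

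Promoter sequence is shown for genes whose called regions held an annotated start or lay on both sides of it. *Nr2f1* had an annotated start inside its lower region, the start of the long *Hopx* transcripts lay between its 2 lower regions, and that of *Hand2* lay between a lower and a higher region. The printed *Hopx* start was 14.4 and 38.6 kb from the edges of its regions, and the *Hand2* start 15.7 and 38.0 kb. Neither of these windows lay in a called region, so no acetylation level is available for them. The 250 bases before the start are printed 5′ to 3′ on the strand of the gene (RefSeq, GRCm38.p6, which is the mm10 build of the table). Capitals mark, on either strand, the T-box letters GGTGTG, the zinc finger site AGATAA of GATA factors, the form of the E-box known for Hand proteins, CATCTG, the sites GGGCGG and also CCACCC of KLF and SP factors, the MEF2 site and the CArG box.
Hopx, chr5:77115124-77115373, minus strand: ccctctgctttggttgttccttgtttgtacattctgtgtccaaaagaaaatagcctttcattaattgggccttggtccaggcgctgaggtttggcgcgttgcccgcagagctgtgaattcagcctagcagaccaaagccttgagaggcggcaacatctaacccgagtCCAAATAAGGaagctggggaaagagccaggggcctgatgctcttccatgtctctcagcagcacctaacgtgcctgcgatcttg
Hand2, chr8:57320733-57320982, plus strand: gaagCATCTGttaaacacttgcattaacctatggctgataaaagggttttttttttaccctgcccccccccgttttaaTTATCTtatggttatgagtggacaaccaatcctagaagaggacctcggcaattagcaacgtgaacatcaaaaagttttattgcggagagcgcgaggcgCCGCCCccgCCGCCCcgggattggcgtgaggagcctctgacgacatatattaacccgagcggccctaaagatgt
Nr2f1, chr13:78198874-78199123, minus strand: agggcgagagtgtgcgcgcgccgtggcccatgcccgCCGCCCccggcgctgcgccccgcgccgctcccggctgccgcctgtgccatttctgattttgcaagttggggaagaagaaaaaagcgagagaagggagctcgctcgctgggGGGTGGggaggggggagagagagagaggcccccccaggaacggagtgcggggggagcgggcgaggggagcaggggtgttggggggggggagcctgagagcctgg
The *Hopx* window held 1 CArG box, from position -83 before the start, a match found in 1.39% of 21262 windows of the same length before protein-coding genes. This was the only 1 of 6 windows with a CArG box. Besides the marked sites, other letters were searched for in the same windows, which adds chances of a rare match. The general E-box CANNTG was in 3 of 6 windows (62.8% of all windows) and AAGTG of NKX factors in 2 (39.7%). AGGTCA of nuclear receptors (12.8% of all windows) and GGAATG of TEAD factors (11.7%) were in none of the 6. The inner *Hopx* start was nearer to the intragenic region, 1.73 kb from its edge against 14.4 kb for the outer one. The window before it, not printed, held none of the marked sites, and neither did that of *Mef2a*. The *Hand2* window held 1 AGATAA and 1 CATCTG, found in 8.81% and 12.4% of all windows, and 2 copies of GGGCGG, found in 42.6%. The *Nr2f1* window held 1 GGGCGG and 1 CCACCC, the latter found in 30.2%, and its GC content was 72.0%. The window before the inner *Nr2f1* start, not printed, held 1 CATCTG and no other marked site. None of the 6 windows matched, at 4 of the 6 genes, held GGTGTG, which 15.8% of all windows held. Promoters of *Myocd* and *Gata6* were not matched. A match of letters is a description and marks no bound site.

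**Figure D1:**
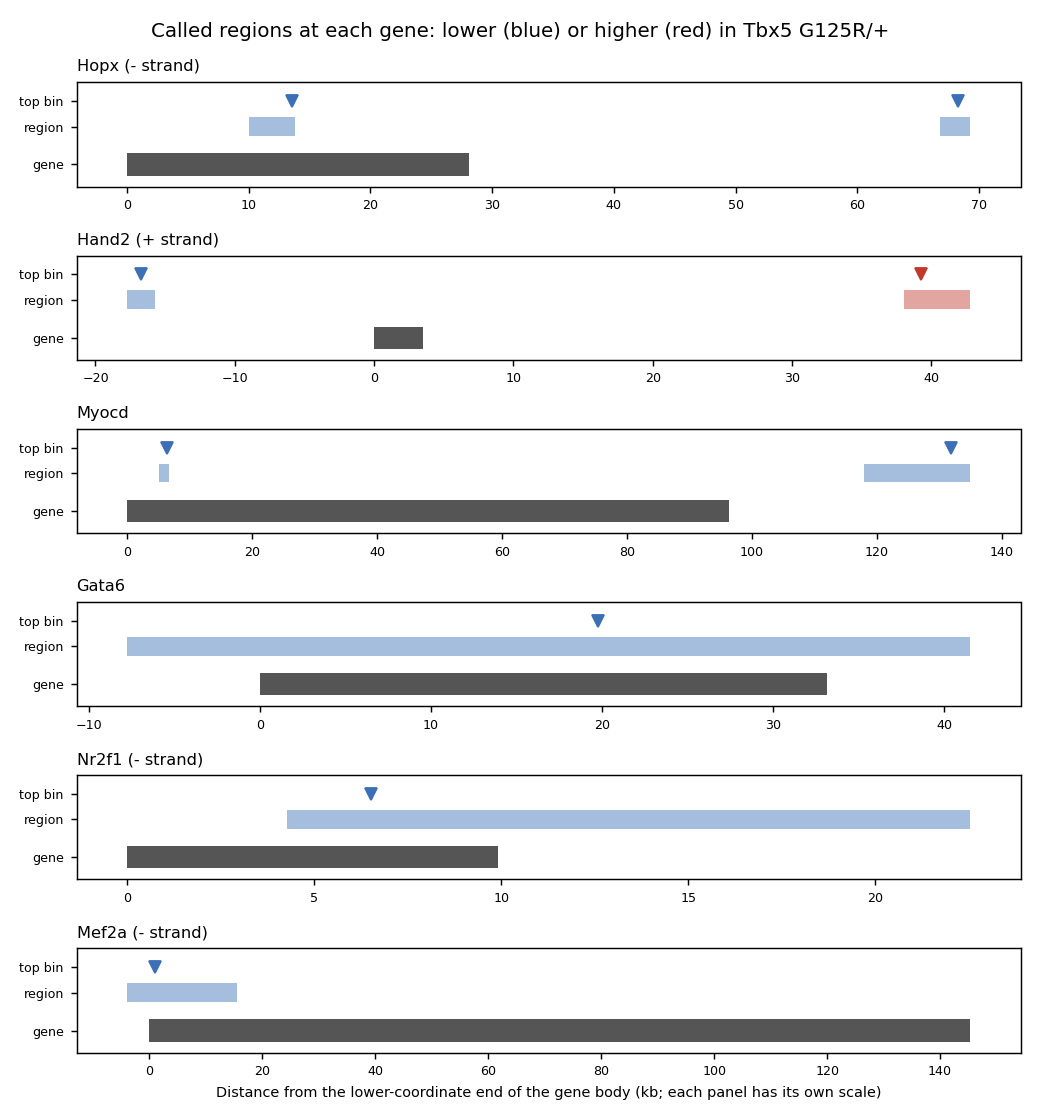
Called regions at the 6 genes. Dark bars are gene bodies, coloured bars are whole called regions and triangles are top bins, against the distance in kb from the lower-coordinate end of the gene body; blue is lower and red is higher in *Tbx5*G125R/+. Of the 8 lower regions 5 have their top bin inside a gene body and 3 outside, and the single higher region lies downstream of *Hand2*.

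*Hopx* carried a pair of lower regions. The first lay inside the gene, on chromosome 5 from 77097001 to 77100750, and overlapped the antisense noncoding gene *Hopxos* by 1921 bp. Its top bin (77100251 to 77100750) was 14.6 kb downstream of the outer annotated start and 5.23 kb upstream of the inner one. It held 88.4, 57.2, 58.5, 95.6 and 58.5 normalised reads in control replicates 1 to 5. In *Tbx5*G125R/+ replicates 1 to 6 it held 23.0, 3.91, 5.61, 9.29, 2.19 and 7.30. The genotypes did not overlap, and the highest *Tbx5*G125R/+ library was far below the lowest control. The means were 71.6 ± 18.8 (SD, n = 5) and 8.55 ± 7.50 (SD, n = 6), an 8.38-fold difference (log2 ratio of *Tbx5*G125R/+ over control, -3.07). Without *Tbx5*G125R/+ replicate 1 the log2 ratio was -3.66.

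The second *Hopx* region was the most strongly acetylated of all 9. It lay on chromosome 5 from 77153751 to 77156250, with its top bin 40.1 kb upstream of the outer start. There it fell within the noncoding gene *Gm34598* and 14.9 kb from *Chaer1*, a noncoding RNA gene known from cardiac hypertrophy in mice. Controls held 350, 213, 280, 384 and 281 normalised reads, and *Tbx5*G125R/+ libraries held 115, 122, 110, 133, 182 and 114. All libraries of both genotypes were thus well above 0, without overlap. The means of 301 ± 67.0 and 129 ± 26.8 differed 2.33-fold (log2 ratio -1.22), the smallest ratio among the 9 regions. The pair thus lay 54.8 kb apart and differed in extent, since the mean of the intragenic bin was 8.38-fold lower and that of the upstream bin 2.33-fold.

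**Figure D2:**
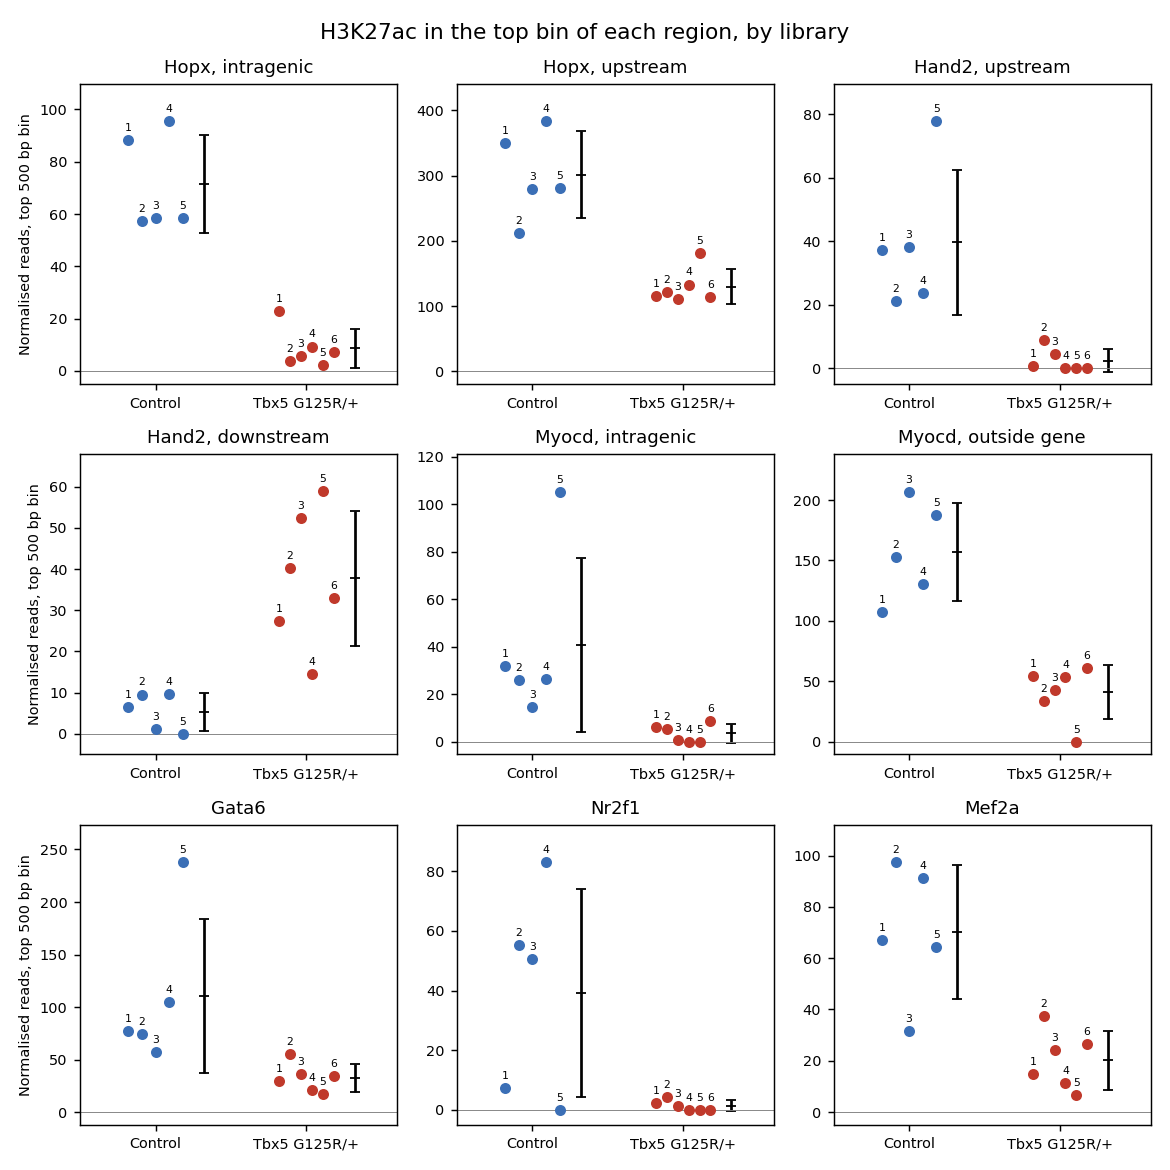
Normalised reads of the top bin in every library. Each point is 1 library with its replicate number, bars are mean ± SD over 5 control (blue) and 6 *Tbx5*G125R/+ (red) libraries, and each panel has its own linear axis. *Nr2f1* and *Mef2a* are the panels in which the genotypes overlap, and control replicate 5 stands apart at the intragenic *Myocd* bin (105) and at *Gata6* (238).

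*Hand2*, a basic helix-loop-helix factor needed for the right ventricle and the second heart field in the mouse, had a lower region upstream and a higher region downstream. The upstream region, on chromosome 8 from 57303251 to 57305250, had its top bin (57304001 to 57304500) 16.7 kb before the *Hand2* start. The bin spanned the end of *Hand2os1*, the noncoding gene also known as Upperhand that is transcribed away from *Hand2* from a neighbouring start. Controls held 37.3, 21.1, 38.2, 23.5 and 78.0 normalised reads. *Tbx5*G125R/+ libraries held 0.489, 8.94, 4.36, 0, 0 and 0. All 5 controls exceeded every *Tbx5*G125R/+ library, and 3 of the latter had no read. A count of 0 allows up to 3 reads, which is 3.10, 6.56 and 1.56 normalised reads in replicates 4, 5 and 6 (counting error only). The means were 39.6 ± 22.8 and 2.30 ± 3.67, a 17.2-fold difference (log2 ratio -4.11) that rested on 24 reads in all *Tbx5*G125R/+ libraries. Without *Tbx5*G125R/+ replicate 2, which held 16 of these reads, the log2 ratio was -5.35.

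The downstream *Hand2* region, on chromosome 8 from 57359001 to 57363750, was the single gain. Its top bin lay 39.3 kb after the *Hand2* start and 5.67 kb from the noncoding gene *Hdnr*. Controls held 6.39, 9.54, 1.12, 9.69 and 0 normalised reads, and *Tbx5*G125R/+ libraries held 27.4, 40.2, 52.4, 14.4, 59.1 and 32.9. The genotypes did not overlap, although *Tbx5*G125R/+ replicate 4 came close to the highest controls. The means were 5.35 ± 4.58 and 37.7 ± 16.4, a 7.05-fold difference (log2 ratio 2.82). The lower and the higher top bin lay 56.0 kb apart on either side of the gene, and their levels were nearly exchanged, at about the same height in the genotype that carried the mark.

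*Myocd* also had a pair of lower regions, at opposite ends of the locus. The intragenic region lay on chromosome 11 from 65178751 to 65180250, near the lower-coordinate end of the gene body. Controls held 31.95, 25.9, 14.6, 26.3 and 105 normalised reads there, and *Tbx5*G125R/+ libraries held 6.36, 5.59, 0.623, 0, 0 and 8.87. The genotypes did not overlap, but control replicate 5 was several times the other controls. The means were 40.8 ± 36.6 and 3.57 ± 3.85, an 11.4-fold difference (log2 ratio -3.51). Without control replicate 5 the log2 ratio was -2.79.

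The other *Myocd* region, from 65291501 to 65308500, spanned 17.0 kb beyond the other end of the gene, with its top bin 35.5 kb away. The nearest annotated gene there was the noncoding *Gm30586*, at 16.9 kb. Controls held 108, 153, 207, 130 and 187 normalised reads, and *Tbx5*G125R/+ libraries held 54.8, 34.1, 43.0, 53.7, 0 and 61.0. *Tbx5*G125R/+ replicate 5 alone had no read, which in this shallow library allows up to 6.56 normalised reads, below all the others. The means were 157 ± 40.6 and 41.1 ± 22.3, a 3.82-fold difference (log2 ratio -1.93, and -1.67 without that library).

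*Gata6*, a zinc finger factor of cardiac and endodermal development, lay within the widest region of the set. The region ran over 49.3 kb on chromosome 18, from 11044751 to 11094000, and covered the whole gene body together with part of the noncoding gene *Gata6os*. Among all 313 lower regions of the table it was the 12th widest. Its top bin (11072001 to 11072500) lay inside the gene. Controls held 77.8, 74.9, 57.4, 105 and 238 normalised reads, and *Tbx5*G125R/+ libraries held 29.8, 55.3, 36.8, 21.7, 17.5 and 34.9. The genotypes did not overlap, but control replicate 3 and *Tbx5*G125R/+ replicate 2 were close neighbours. The means were 111 ± 73.2 and 32.7 ± 13.4, a 3.39-fold difference (log2 ratio -1.76, and -1.27 without control replicate 5).

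*Nr2f1* had the largest ratio of group means in the set, on uneven controls and few reads. Its region on chromosome 13, from 78193251 to 78211500, held both annotated starts of the gene and overlapped the noncoding gene *A830082K12Rik*. The top bin (78195251 to 78195750) lay inside the gene, 3.37 kb after the outer start shown above and 0.949 kb after the inner one. Controls held 7.46, 55.2, 50.6, 83.1 and 0 normalised reads, and *Tbx5*G125R/+ libraries held 2.45, 4.47, 1.25, 0, 0 and 0. Control replicate 5 was at 0, so the genotypes overlapped, while 3 of the 5 controls stood far above every *Tbx5*G125R/+ library. The means were 39.3 ± 34.8 and 1.36 ± 1.81, a 28.9-fold difference (log2 ratio -4.85) that rested on 15 reads in all *Tbx5*G125R/+ libraries. The *Tbx5*G125R/+ mean was below what 3 reads are worth in every library of this genotype (1.47 to 6.56), so the size of this ratio is uncertain. Without *Tbx5*G125R/+ replicate 2 the log2 ratio was -5.73, and as a difference of mean log2(normalised reads + 1) it was -3.29. By that last measure the upstream *Hand2* bin (-4.14) and the intragenic *Myocd* bin (-3.45) differed more, so the first rank of *Nr2f1* depended on the summary.

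*Mef2a*, which encodes a MADS-box factor of postnatal muscle, had 1 lower region, at the far end of the gene from its annotated start. It lay on chromosome 7 from 67227251 to 67246750, with the top bin (67232001 to 67232500) 141 kb downstream of the start and 3.78 kb from *Lysmd4*, whose end the region reached. Controls held 67.1, 97.4, 31.5, 91.4 and 64.4 normalised reads, and *Tbx5*G125R/+ libraries held 14.7, 37.4, 24.3, 11.4, 6.56 and 26.6. Control replicate 3 lay below *Tbx5*G125R/+ replicate 2, the overlap of the genotypes. The means were 70.4 ± 26.1 and 20.2 ± 11.4, a 3.49-fold difference (log2 ratio -1.80).

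The lower regions differed in how much of the mark was left, without a clear division. The *Nr2f1* bin, the upstream *Hand2* bin and the intragenic *Myocd* bin had control means of 39.3 to 40.8 and *Tbx5*G125R/+ means of 1.36 to 3.57. They ranked 2nd, 3rd and 15th in size of log2 ratio among the 313 lower regions, but only 273rd, 272nd and 269th in control level. The intragenic *Hopx* bin lay between these and the rest, 38th in size of log2 ratio and 183rd in control level. The upstream *Hopx* bin was the reverse, 22nd in control level and 254th in size of log2 ratio. *Gata6*, *Mef2a* and the outer *Myocd* bin lay near the middle in ratio, at 161st, 152nd and 139th. Over all 313 lower regions the median was 90.2 normalised reads in controls (interquartile range 52.9 to 148) and 26.1 (9.48 to 59.1) in *Tbx5*G125R/+. Ratio and level are tied in this table, since the empty band between lower and higher regions widens at low levels, and the ranks were not tested.

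**Figure D3:**
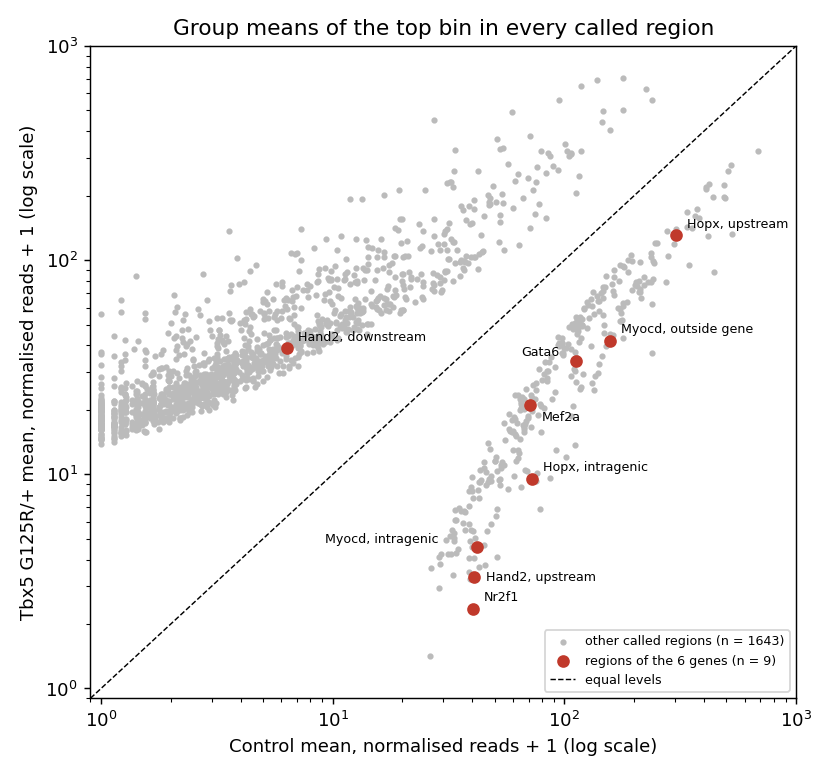
Group means of the top bin in all called regions, as normalised reads plus 1 on log axes. Grey points are the other 1643 regions, red points the 9 regions of the 6 genes, and the dashed line marks equal levels; the empty band along it is where regions were not called. The 8 lower regions span the cloud of lower regions from *Nr2f1* (39.3 against 1.36) to the upstream *Hopx* bin (301 against 129).

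In 6 of the 8 lower regions every *Tbx5*G125R/+ library lay below every control library, as in 15.1% of all 1652 regions, or 250 of the 313 lower ones. The gain at *Hand2* was separated with the deposited size factors, like 73.2% of all regions in that direction. Its genotypes overlapped when the libraries were scaled by their total reads in the top bins or by TMM factors. These scalings lowered the number of regions separated as higher from 1209 to 836 and 307. Both were computed on the called bins alone, of which 1339 of 1652 were higher. Their factors thus include the genotype difference for which the bins were called, and the lost separation cannot be read as a property of the *Hand2* gain. An edgeR quasi-likelihood test of the recovered reads called 214 regions lower (13.0%) and 1223 higher (74.0%), and with TMM factors 313 lower and 146 higher. Since every region in the table had been called on these same libraries, the outcome of this test was largely fixed, and nothing about the 6 genes is read from it or from the shares.

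Single libraries weighed differently on the genes. *Tbx5*G125R/+ replicate 5 was the lowest of its group, or level with the lowest, in 7 of the 8 lower bins and had no read in 4 of them. At the upstream *Hopx* bin it was instead the highest, at 182. It was the shallowest of its group, with 43183 reads in all top bins against 84686 to 161738 in the others. Control replicate 5, the shallowest control with 27118 reads against 35393 to 72442, was the highest control at *Gata6*, the upstream *Hand2* bin and the intragenic *Myocd* bin, and the lowest at *Nr2f1*. Without the pair of shallow libraries all 9 regions kept their direction, which their choice on these libraries largely fixed. The log2 ratios were then -3.45 at the upstream *Hand2* bin, -2.53 at the intragenic *Myocd* bin and -1.14 at *Gata6*. The part of depth in the spread was not tested.

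**Figure D4:**
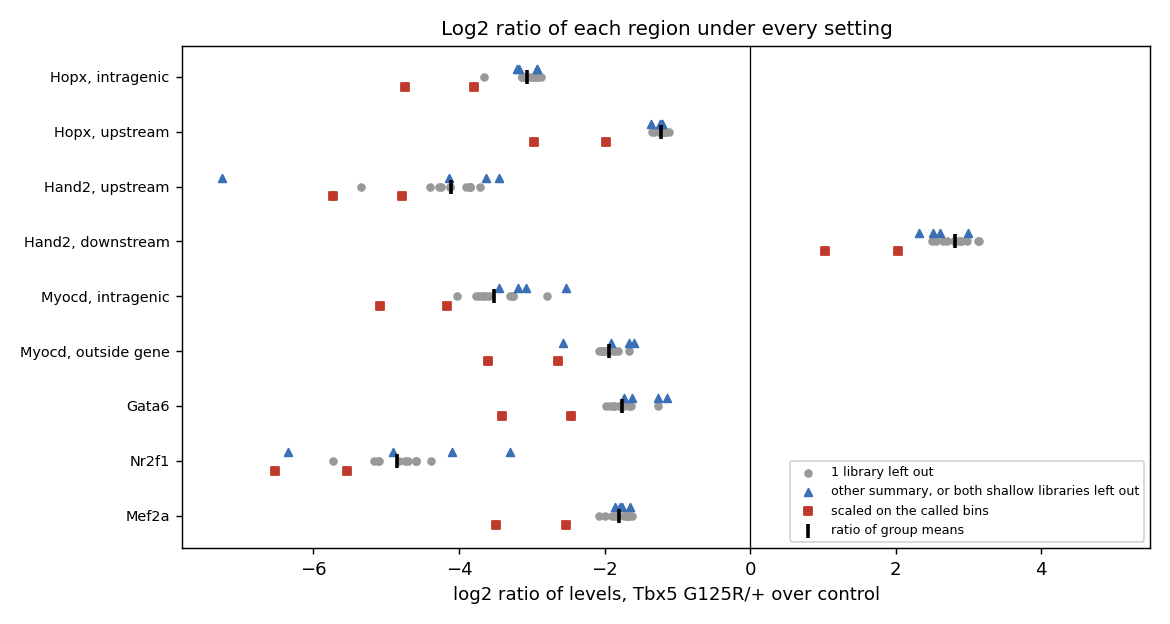
Log2 ratio of *Tbx5*G125R/+ over control for each region. Black bars are ratios of group means, grey points leave out 1 library, blue triangles use another summary or leave out both shallow libraries, and red squares rescale the libraries on the called bins. No point crosses 0, which the choice of regions on these libraries largely fixed. *Hand2* upstream and *Nr2f1* spread most, down to -7.25 and -6.53. The -7.25 rests on a *Tbx5*G125R/+ median of 0.245 normalised reads, below the counting limit.

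The called regions around the genes set the limit of the rule. All 9 lay within 40.1 kb of their gene, well inside the limit of 100 kb. The nearest called regions beyond it were one 180 kb from *Mef2a*, inside *Lrrc28*, lower in *Tbx5*G125R/+ (106 to 17.7), and one 373 kb from *Hopx*, nearest to *Igfbp7*, higher (0.554 to 21.6). No other called region lay within 500 kb of the 6 genes.

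The profiles most like those of the 6 genes belonged to other lower regions. Over the 11 libraries the log2 levels of the intragenic *Hopx* bin followed those of *Aak1* (Pearson r = 0.949) and *Cacna1g*, a T-type calcium channel gene (0.945). For *Gata6* they were *Lrch1* (0.957) and the muscarinic receptor gene *Chrm2* (0.948), and for the intragenic *Myocd* bin *Fkbp10* (0.965) and *Fam78a* (0.961). For the upstream *Hand2* bin they were *Lgr4* (0.948) and *Cox10* (0.943), and for *Mef2a* *Fkbp10* and *Lgr4* (0.922 each). *Nr2f1* had no partner as close, the best being *Chrdl2* (0.852) and *Ccdc34* (0.822). These correlations include the genotype difference for which all the regions were chosen, and the points share their libraries.

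Other genes of the cardiac transcription factor network were found in the table in both directions. Of 61 further genes, 13 had a called region, 9 with 12 higher and 4 with 4 lower regions. Called higher regions make up most of the table, so the split is a count and no contrast with the 6 genes. Losses included *Ppargc1a*, the coactivator of mitochondrial biogenesis (408 ± 83.9 to 219 ± 46.7), its partner *Esrrg* (110 ± 32.1 to 47.4 ± 11.9) and *Smyd1*, a muscle histone methyltransferase (130 ± 12.1 to 59.9 ± 19.5). Gains included *Mef2c* (6.26 ± 4.74 to 36.8 ± 17.8), the relative of *Mef2a*, and *Mrtfa* (5.67 ± 5.93 to 63.4 ± 20.1), whose product, like myocardin, is a coactivator of SRF. Thus *Mef2a* and *Mef2c*, and *Myocd* and *Mrtfa*, had called regions in opposite directions. Whether these differences differ between the genes was not tested.

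The 8 regions at *Sox5*, *Zfpm2*, *Foxp1*, *Mef2c* and *Tbx2* were all higher. Their control means were 0.273 to 9.95 and their *Tbx5*G125R/+ means 19.7 to 49.1, and the *Hand2* gain (5.35 to 37.7) fell within both ranges. Such levels were usual for called gains. Over all 1339 higher regions the median was 2.27 in controls (interquartile range 0.818 to 7.20) and 30.5 in *Tbx5*G125R/+ (21.2 to 54.2). The lower regions of the 6 genes had control means of 39.3 to 301. Their median width was 10.4 kb against 3 kb, but they were not wider throughout. Only 4 of them exceeded 10 kb (17.0 to 49.3 kb), and the rest spanned 1.5 to 3.75 kb, within the 1 to 7.5 kb of the compared regions. The median was 6 kb over all lower and 2.5 kb over all higher regions, and the difference in width between these 2 sets was not tested.

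Among 22 partners and regulators of the 6 factors, 3 had a called region. *Hdac9*, a class II histone deacetylase that represses MEF2 factors, had a lower region (133 ± 41.1 to 55.0 ± 22.8) and a higher one (16.7 ± 10.8 to 61.6 ± 18.5) inside the gene. *Dpf3*, a chromatin remodelling subunit of heart and muscle, had a lower one (212 ± 37.0 to 65.2 ± 24.8), and *Tcf4*, which encodes a partner of basic helix-loop-helix factors, had 3 higher ones. Of 17 known targets of Myocd with SRF or of MEF2, cardiac actin *Actc1* had a lower region (179 ± 39.2 to 42.1 ± 13.7) and *Lmod1* a higher one (11.2 ± 7.32 to 46.1 ± 13.7).

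Markers of the sorted cells and of other cell types were counted in the same way. Of 12 cardiomyocyte markers 3 had called regions, all 4 of them lower, and 9 had none. Of 9 fibroblast markers 5 had called regions, 7 in all and all higher. Of 8 endothelial markers *Kdr* and *Cdh5* had higher regions and *Erg* a lower one. A gene without a called region has no level in the table, so neither the presence of atrial cardiomyocytes nor the absence of other cells can be read from it. Summed over the 4 lower cardiomyocyte marker regions (*Actc1*, *Actn2* and 2 at *Ryr2*), controls held 756 to 1134 normalised reads (median 804) and *Tbx5*G125R/+ libraries 280 to 367 (median 333). Summed over the 7 fibroblast marker regions (*Col1a2*, *Dcn*, *Lum*, *Pdgfra* and *Postn*), controls held 9.75 to 66.5 (median 38.8) and *Tbx5*G125R/+ libraries 279 to 477 (median 331). At the 6 higher endothelial regions the ranges were 134 to 234 and 568 to 834. *Rgs5* of pericytes and *Mrc1* of macrophages had 1 higher region each, with a control median of 0 at both, and no epicardial (of 4) or neuronal and glial (of 4) marker had one. The single lower endothelial region, at *Erg*, overlapped between genotypes (controls 30.4 to 195, *Tbx5*G125R/+ libraries 4.38 to 36.5). The cardiomyocyte, fibroblast and higher endothelial sums did not overlap between genotypes, and all these regions were called on the same contrast as those of the 6 genes. The part of other cell types in the losses at the 6 genes was not tested.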

How the data were processed

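H3K27ac CUT&RUN libraries of PCM1-sorted atrial nuclei (5 control, 6 *Tbx5*G125R/+) were grouped by their labels, which count them as separate samples. Tools named in the submitters' processing notes are BWA, bedtools and DESeq2, on mm10 (versions not given in the sources used here). The authors deposited, per library, the signal of the top bin as reads divided by a size factor. Their own fold change and adjusted p columns hold the study's comparison and were not used.

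Values in a library were all multiples of what 1 read is worth there, and whole reads were recovered for 100% of values (tolerance 0.05 reads). Depth in the top bins was 27118 to 161738 reads. Counting limits of 3 reads cover counting error only. Direction was taken from the group means of the top bin. Genes were assigned with RefSeq GRCm38.p6, and exons and introns were not distinguished. Every region of the 6 genes was named. The 2 most similar regions were named per gene, by Pearson r of log2(normalised reads + 1) at the lower region with the largest log2 ratio. The members and gene lists were chosen with earlier results of these data known.

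The recovered reads were tested with edgeR 4.0.16 (R 4.3.3, quasi-likelihood, deposited size factors, Benjamini-Hochberg over the highest region number, 126854, adjusted p under 0.05). The test was checked on simulated data. Alternatives were other summaries, scalings, tests (DESeq2 1.42.0), assignments and left-out libraries. Motifs in the bins themselves were not analysed here. Some genes of the lists are not reported here by name.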

Additional observations from a re-analysis of the deposited data

Results flagged for a closer look

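In each of the 9 regions the highest and lowest library of each genotype was compared with the rest of its group, and a library was singled out when its gap to the nearest other took more than the share of the group's range given by Dixon's criterion. Among independent groups of normally spread values chance singles out about 1 in 20, and here 4 of 18 groups had such a library. These groups share their libraries and some hold few reads, so the 4 cannot be set against that rate. Control replicate 5 was high at the intragenic *Myocd* bin, with 105 normalised reads, and at *Gata6*, with 238. *Tbx5*G125R/+ replicate 1 was high at the intragenic *Hopx* bin, with 23.0, and *Tbx5*G125R/+ replicate 5 at the upstream *Hopx* bin, with 182.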

How the results depend on the processing

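All 153 alternative log2 ratios of the 9 regions, under 17 settings each, kept their direction, and 142 moved by less than the replicate SD. The regions had been called on these libraries and most settings only left libraries out, so that the kept direction was largely fixed. The replicate SD is the spread of single libraries, from 0.296 at the upstream *Hopx* bin to 1.95 at *Nr2f1*, and is a wide yardstick where it is large. TMM factors from the called bins shifted the ratios by a median of -1.70 over all regions, and the *Hand2* gain then had a log2 ratio of 1.02. Such factors include the genotype difference for which the bins were called. With medians in place of means the upstream *Hand2* bin had -7.25 against -4.11. The *Tbx5*G125R/+ median there was 0.245 normalised reads. That is below what 3 reads are worth in every library of this genotype (1.47 to 6.56), so -7.25 is no measured size. With TMM, 146 regions were called higher and 307 were separated as higher. The number of regions at the 6 genes was 9 within 50 kb or by the midpoint of the whole region. It was 5 inside gene bodies only and 5 with the nearest gene of any kind, when *Hand2* had none. In the edgeR count test, whose outcome the choice of regions largely fixed, leaving out 1 library gave 130 (without *Tbx5*G125R/+ replicate 3) to 209 regions called lower, against 214. Of the 9 regions at the 6 genes 8 passed, all but *Mef2a*. Of all 1652 regions 214 passed as lower (13.0%) and 1223 as higher (74.0%), so nothing about the 6 genes is read from the 8. At the 6 genes the number was 5 without the shallowest library of each genotype, when 171 of all regions passed as lower and 1099 as higher. It was 6 with a filter on low counts, which removed *Nr2f1* and lost the *Hand2* gain. With that filter 181 of 1485 regions passed as lower and 1007 as higher. Replicate numbers did not pair the libraries (correlations of same-numbered deviations -0.15 to -0.017). With the numbers as a replicate block, 74 regions were called lower and 700 higher, and 3 at the 6 genes (both *Hopx* bins and the outer *Myocd* bin), without *Nr2f1*. The cause of these changes was not tested. DESeq2 called 310 lower and 1337 higher. The search for motifs in the bins was not run.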
